A study of Mus musculus with 9 samples.

Results

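The results below follow 10 interferon-induced GTPase genes in resting regulatory T cells that have or lack CNS2, a noncoding enhancer of Foxp3. They are Iigp1, Tgtp1, Tgtp2, Irgm1, Irgm2 and Igtp of the immunity-related GTPases (Irg, 6 genes) and Gbp2, Gbp3, Gbp6 and Gbp7 of the guanylate-binding proteins (Gbp, 4 genes). They were taken by symbol from the 34092 gene rows of the count table, and all 10 had a row and passed the filter on low counts, as 14424 genes did. The 10 genes were chosen by symbol after their fold changes between CNS2KO and WT cells in these libraries were known, so those fold changes are a description and carry no test.

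Total RNA came from primary mouse T cells sorted without culture. The CNS2KO cells carried the allele labelled Foxp3deltaCNS2-gfp, which lacks the element and keeps the green fluorescent reporter. The WT cells carried the reporter alone, labelled Foxp3gfp, so the reporter at Foxp3 is common to both groups. The labels used here give no age, sex or pooling of mice and do not say that the samples came from separate mice, so p-values measure the spread among libraries, possibly a technical one. The labels list 3 CNS2KO and 6 WT samples, and 2 CNS2KO libraries (399, 408) and 5 WT libraries (398, 402, 405, 1032, 1037) could be used. The number 407 belongs to a sample of each genotype, and its 2 columns are identical and were left out.

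Gene reads numbered 21836578 and 21427618 in CNS2KO 399 and 408 and ranged from 16557424 to 19154642 in the WT libraries. Foxp3 stood at 464 and 441 CPM (read counts scaled to library size) in CNS2KO cells and at 410.3 to 607 CPM in WT cells (log2 fold change -0.11, SE 0.18, adjusted p = 1 by edgeR's quasi-likelihood test). Its counts do not check the genotype, since the deleted element is noncoding. The T cell genes Cd3e, Cd4, Ptprc, Il2ra, Ctla4 and Ikzf2 were read in every library, the lowest value being 339 CPM (Ctla4 in WT 398). The summed CPM of 7 B cell markers was 1362 and 1102 in CNS2KO libraries and 1190 to 1507 in WT libraries, most of it Ighm. Of the others, Cd79a had 14.4 CPM in CNS2KO 399, 4.02 CPM in CNS2KO 408 and 2.16 to 9.77 CPM in WT libraries. Cd79b had 48.1 CPM in CNS2KO 399, 23.2 CPM in CNS2KO 408 and 21.9 to 30.2 CPM in WT libraries, and Cd74 had 207 CPM in CNS2KO 399, 124 CPM in CNS2KO 408 and 131 to 161 CPM in WT libraries. These 3 were above every WT library in CNS2KO 399 and not in CNS2KO 408. That of 7 myeloid markers was 80.2 and 97.9 in CNS2KO and 65.4 to 91.1 in WT libraries, and that of 6 CD8 and NK cell markers 55.6 and 55.3 in CNS2KO and 51.3 to 71.0 in WT libraries, with Ncr1 at 0 in every library. The summed CPM of 5 erythroid markers was 151 in CNS2KO 399 and 30.7 in CNS2KO 408, against 6.32 to 27.6 in WT libraries. In bulk RNA, fewer cells of a type and less RNA per cell cannot be told apart.

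Irg and Gbp proteins are large GTPases that cells make in quantity when they sense interferon. In mouse cells the effector Irg proteins, such as those of Iigp1, Tgtp1 and Tgtp2, load onto the vacuole around an intracellular parasite or bacterium and break it, while Irgm1, Irgm2 and Igtp (also called Irgm3) sit on the cell's own membranes and keep the effectors inactive there. Gbp proteins gather on the same vacuoles. Interferon gamma switches these genes on through GAS elements and, by way of interferon regulatory factors, through ISRE elements. Type I interferon acts at ISRE elements.

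The promoters are shown here because they carry a feature the choice of genes did not use. RefSeq promoter windows (GRCm38.p6, 250 bases before to 50 after the gene start) were given for 8 of the 10 genes, all but Iigp1 and Gbp6. They were searched for the GAS core TTCNNNGAA, which reads the same on both strands, and for the ISRE core, which is GAAA, any 2 bases and GAAA again, on either strand (TTTC, any 2 bases and TTTC when it lies on the other strand). All 8 genes held an ISRE core, against 3.44% of the 32851 windows in the table, and 5 of the 8 held a GAS core, against 8.3%. Windows were also given for 8 other GTPase genes of these and related families. Of those, 4 held an ISRE core and 2 a GAS core, so neither core is particular to the 10 genes. Overlapping matches were allowed, and Irgm1 and Gbp3 each had a pair of overlapping ISRE cores. Gbp3 has a second window, with neither core. The stretches below run 5′ to 3′ in the direction of transcription, from 15 bases before the first core to 15 after the last. Capitals mark the cores.
Tgtp1, chr11:48992299-48992349, minus strand: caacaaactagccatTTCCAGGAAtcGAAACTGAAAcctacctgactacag
Tgtp2, chr11:49064258-49064308, minus strand: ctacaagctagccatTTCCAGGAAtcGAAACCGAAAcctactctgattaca
Igtp, chr11:58199496-58199546, plus strand: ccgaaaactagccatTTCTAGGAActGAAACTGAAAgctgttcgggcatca
Irgm2, chr11:58214887-58214937, plus strand: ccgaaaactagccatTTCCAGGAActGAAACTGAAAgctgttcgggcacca
Irgm1, chr11:48871420-48871465, minus strand: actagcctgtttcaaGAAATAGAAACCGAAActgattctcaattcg
Gbp7, chr3:142530215-142530307, plus strand: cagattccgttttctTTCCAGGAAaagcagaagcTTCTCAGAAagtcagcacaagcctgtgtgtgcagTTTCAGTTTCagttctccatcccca
Gbp3, chr3:142559984-142560029, plus strand: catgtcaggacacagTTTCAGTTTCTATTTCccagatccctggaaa
Gbp2, chr3:142620589-142620628, plus strand: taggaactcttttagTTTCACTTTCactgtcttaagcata

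In Tgtp1, Tgtp2, Igtp and Irgm2 a GAS core was followed, after 2 bases, by an ISRE core on the strand of the gene. This joined pattern was described after these windows were seen. It occurred in 5 of the 32851 windows, 0.015%: those 4 genes and Gm12185, a gene of chromosome 11 that RefSeq also names Irgb2b1. The stretches of Igtp and Irgm2, which lie next to each other on chromosome 11, were equal at 49 of 51 bases, and those of Tgtp1 and Tgtp2 at 39 of 51. Bases were compared position by position without gaps, so an inserted base can make the bases after it count as unequal. The GAS core began 88 bases before the gene start in Tgtp1, 81 in Tgtp2, 75 in Irgm2 and 45 in Igtp. Irgm1, Gbp2 and Gbp3 had no GAS core in these windows. A match is a description of the letters, not of a bound site.

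**Figure D1:**
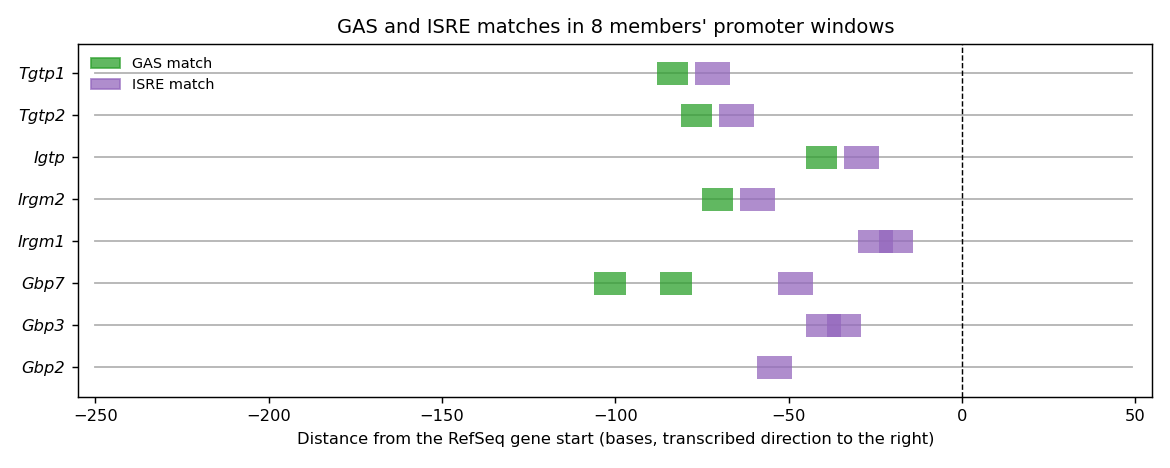
Positions of GAS cores (green) and ISRE cores (purple) in the promoter windows of 8 of the 10 genes, with distance from the RefSeq gene start in bases on the x axis and 1 line per gene. In Tgtp1, Tgtp2, Igtp and Irgm2 the green and purple boxes stand side by side, and every core shown lies before the start.

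The genes differed widely in level in resting regulatory T cells. Levels are compared per kb of exon (CPM per kb), with exon lengths from GENCODE M21, which is not the annotation behind the counts. The length covers all annotated exons of a gene. For Irgm1 it is 5810 bases against 2259 in its longest coding transcript, for Gbp6 5954 against 2604 and for Iigp1 5823 against 3121. For Igtp and Gbp2 the 2 lengths are equal. The order of levels below holds for this length only. Igtp was the most highly read, at 428 ± 51.3 CPM per kb in CNS2KO cells (SD, n = 2) and 343 ± 29.4 in WT cells (SD, n = 5). Gbp2 stood at 243 ± 25.4 and 167 ± 28.3 CPM per kb in CNS2KO and WT cells, and Gbp7 at 181 ± 12.2 and 157 ± 10.8. At the lower end, Tgtp1 stood at 58.4 ± 3.34 and 35.9 ± 3.61, Gbp6 at 51.4 ± 16.3 and 34.1 ± 1.49, and Irgm2 at 36.6 ± 4.51 and 33.6 ± 5.13. In the order of WT levels, Igtp, Gbp2, Gbp7, Tgtp2, Gbp3, Irgm1, Iigp1, Tgtp1, Gbp6 and Irgm2, the WT ranges of these neighbours overlapped and so were not told apart: Gbp2 and Gbp7, Tgtp2 and Gbp3, Irgm1 and Iigp1, and the last 3. For scale, Foxp3 stood at 98.9 ± 3.47 CPM per kb in CNS2KO cells and 107 ± 17.2 in WT cells.

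**Figure D2:**
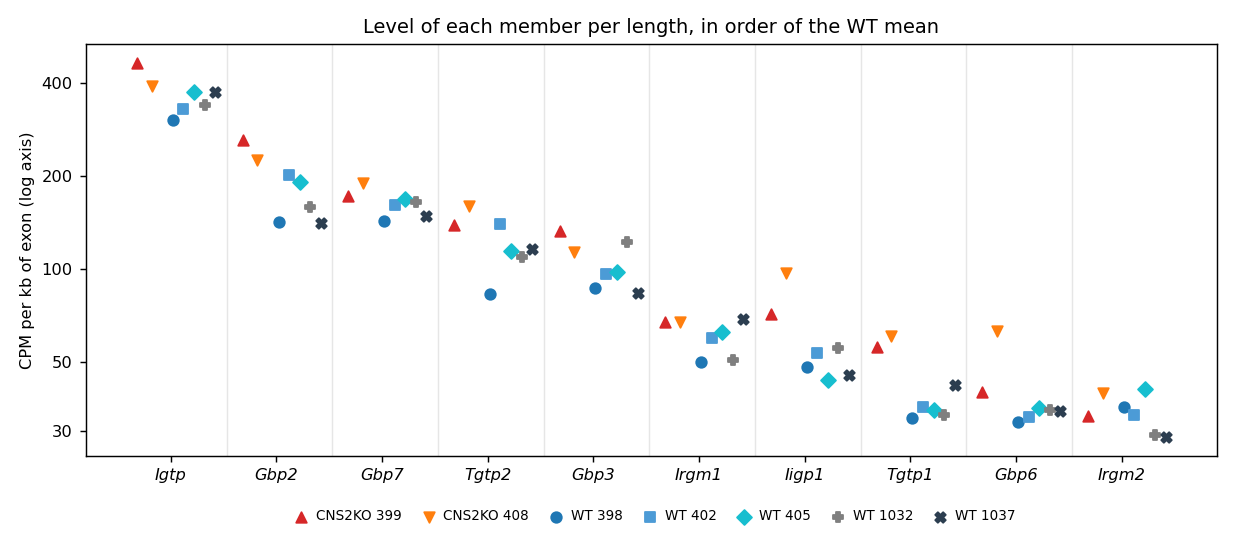
CPM per kb of exon on a log axis for each of the 10 genes in order of the WT mean, with 1 marker per library, CNS2KO libraries (red and orange) left of WT libraries. Igtp lies at 303.9 or above in every library, and Irgm2 and Gbp6 lie between 28.6 and 62.9.

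Some of these levels may rest on reads that near-identical genes or overlapping gene models share. Of the 50-base words of a Tgtp1 transcript, 89.4% also occur in Tgtp2, and of those of Tgtp2, 89.8% occur in Tgtp1. Of the words of Gbp6, 90.2% occur in the overlapping model Gm43302 of GENCODE M21, and whether the annotation behind the counts holds that model is not known. For the other 7 genes the share found in any other gene was 0.814% (Irgm1) to 12.8% (Gbp7). Reads aligned to more than 1 place were counted apart from genes, 14.7 to 19.7% of each column, so the split between Tgtp1 and Tgtp2 is uncertain. The level of Gbp6 is uncertain for another reason, since how reads in the overlap with Gm43302 were counted is not known.

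The comparison of CNS2KO with WT cells asks how resting regulatory T cells differ without the element. All 10 genes had positive log2 fold changes, with a median of 0.37 and a range of 0.12 to 0.78. Over all genes tested, 47.4% were positive and the median was -0.03. The summed level of the 10 genes was 4753 CPM in CNS2KO 399 and 4935 CPM in CNS2KO 408, and 3296 to 3925 CPM in the WT libraries. In 6 of the 10 both CNS2KO libraries lay above every WT library, which held for 3.76% of all genes tested. Because this difference led to the choice of the 10 genes, neither count is support for it. At an FDR of 0.05, 0 of 14424 genes (0%) were called by edgeR's quasi-likelihood test, so none of the 10. At an unadjusted p under 0.05 there were 361 genes (2.5%), 222 of them higher (1.54%) and 139 lower (0.964%) in CNS2KO cells, and DESeq2 and limma-voom also called 0 genes at that FDR, with 496 and 614 at an unadjusted p under 0.05. With only 2 CNS2KO libraries, 0 calls here and for the lists below do not show that genes were unchanged.

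Among the effector Irg genes, Iigp1 had 416 and 566 CPM in CNS2KO 399 and 408, and 281, 311, 254, 322 and 264 CPM in WT 398, 402, 405, 1032 and 1037. Both CNS2KO libraries stood above every WT library, and the higher was CNS2KO 408. The log2 fold change of Iigp1 was 0.78 (SE 0.17), the largest of the 10, and it was 0.99 with CNS2KO 408 as the only CNS2KO library and 0.53 with CNS2KO 399.

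Tgtp1, an effector that binds parasite vacuoles, had 180 and 195 CPM in CNS2KO 399 and 408, and 105, 115, 113, 107.5 and 134.5 CPM in WT 398, 402, 405, 1032 and 1037. The groups did not overlap, and the log2 fold change was 0.70 (SE 0.17). Its near-copy Tgtp2 had 406 and 468 CPM in CNS2KO 399 and 408, and 244, 410, 335, 321 and 340 CPM in the WT libraries in the same order. CNS2KO 399 lay just below WT 402, so the groups of Tgtp2 overlapped, and the log2 fold change was 0.41 (SE 0.19). With the reads of Tgtp1 and Tgtp2 summed, the log2 fold change was 0.49.

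The regulators of the Irg family had log2 fold changes of 0.12 to 0.32. Igtp had 938 and 791 CPM in CNS2KO 399 and 408, and 614, 666.5, 754, 683.5 and 752 CPM in WT 398, 402, 405, 1032 and 1037. CNS2KO 408 lay only a little above WT 405, and the log2 fold change was 0.32 (SE 0.15), or 0.19 with CNS2KO 408 as the only CNS2KO library. Irgm1 had 393 and 390 CPM in CNS2KO libraries and 290 to 401 CPM in WT libraries, with WT 1037 above both CNS2KO libraries (log2 fold change 0.21, SE 0.17). Irgm2 had 123 and 147 CPM in CNS2KO libraries and 105.5 to 151 CPM in WT libraries, so both lay inside the WT range. Its log2 fold change was 0.12 (SE 0.20), and it was -0.02 with CNS2KO 399 as the only CNS2KO library and -0.01 against WT 398, 402 and 405 alone. Igtp and Irgm2 share nearly all of the promoter stretch shown above, and their log2 fold changes were 0.32 and 0.12, a difference that was not tested.

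Of the Gbp genes, Gbp2 had 657 and 567 CPM in CNS2KO 399 and 408, and 356, 506, 482, 398 and 354 CPM in WT 398, 402, 405, 1032 and 1037. The groups did not overlap, and CNS2KO 399 was the higher (log2 fold change 0.54, SE 0.18). Gbp6 had 238 and 375 CPM in CNS2KO 399 and 408, against 189.9 to 212 CPM in WT libraries, the narrowest WT spread of the 10 (SD 0.06 on the log2 scale). Its log2 fold change was 0.59 (SE 0.18), but 0.89 with CNS2KO 408 alone and 0.22 with CNS2KO 399 alone, so its size rested on CNS2KO 408.

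Gbp7 had 969 and 1066 CPM in CNS2KO libraries and 801.5 to 944 CPM in WT libraries (log2 fold change 0.21, SE 0.14, or 0.13 with CNS2KO 399 alone). The gap between the groups was smaller than the WT range. Gbp3 had 434 and 371 CPM in CNS2KO 399 and 408 and 272 to 398 CPM in WT libraries (log2 fold change 0.34, SE 0.18), with WT 1032 above CNS2KO 408. The median log2 fold change was 0.36 over the 6 Irg genes and 0.44 over the 4 Gbp genes.

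**Figure D3:**
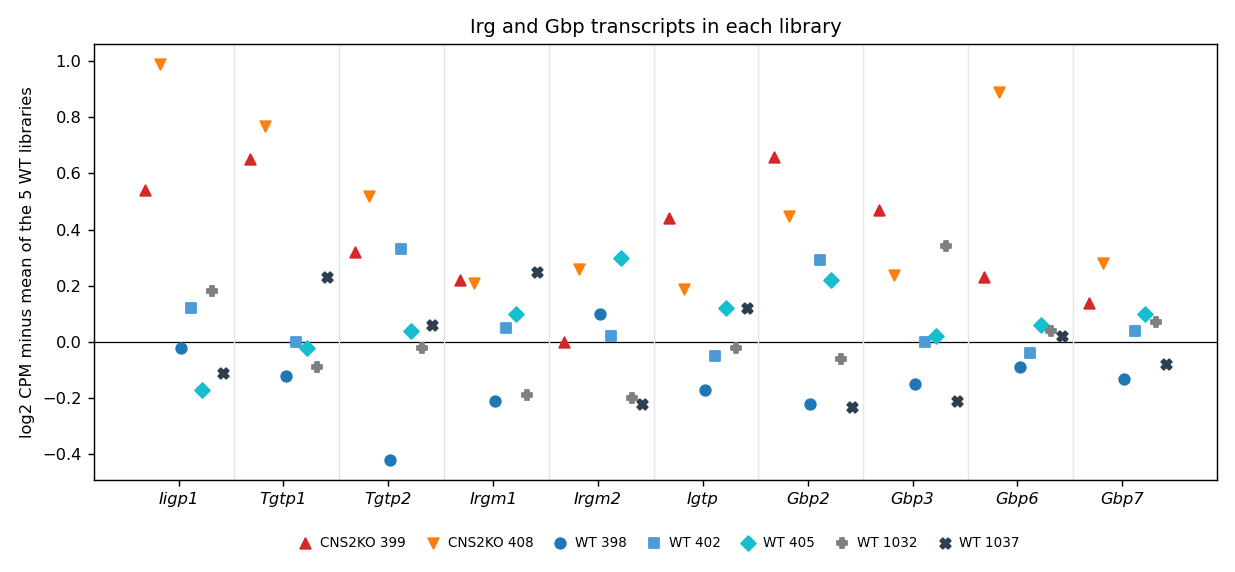
Log2 CPM of each of the 10 genes minus its mean in the 5 WT libraries, with 1 marker per library and CNS2KO markers (red and orange triangles) left of WT markers. Both triangles stand above every WT marker for Iigp1, Tgtp1, Igtp, Gbp2, Gbp6 and Gbp7, and for Irgm2 both lie within the WT markers.

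The leading genes differed only in part between the CNS2KO libraries, with Iigp1 and Tgtp1 among them in both. The mean difference from WT over the 10 genes was 0.37 in CNS2KO 399 and 0.48 in CNS2KO 408 on the log2 scale, and -0.14 (WT 398) to 0.08 (WT 402 and 405) in WT libraries. Over all genes tested the same mean was -0.19 in CNS2KO 399, 0.14 in CNS2KO 408 and -0.12 to 0.12 in WT libraries. WT 405 was the highest WT library in 4 of the 10 genes, against 16.9% of all genes tested. CNS2KO 399 lay above every WT library in 7 of the 10 genes, against 20.1% of all genes tested, and CNS2KO 408 in 7 of the 10, against 12.8%. Both counts come from the comparison that led to the choice of the 10 genes, so neither is support for it. The leading genes were Gbp2 (0.66), Tgtp1 (0.65) and Iigp1 (0.54) in CNS2KO 399, and Iigp1 (0.99), Gbp6 (0.89) and Tgtp1 (0.77) in CNS2KO 408. Erythroid markers and the B cell markers Cd79a, Cd79b and Cd74 were also higher in CNS2KO 399, as given above. The mean difference of 6 B cell markers was 0.56 in CNS2KO 399, -0.34 in CNS2KO 408 and -0.25 to 0.23 in WT libraries. The part of either marker group in these values was not tested. The median of the 10 was 0.36 with each CNS2KO library alone, and 0.40 against WT 398, 402 and 405 only.

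**Figure D4:**
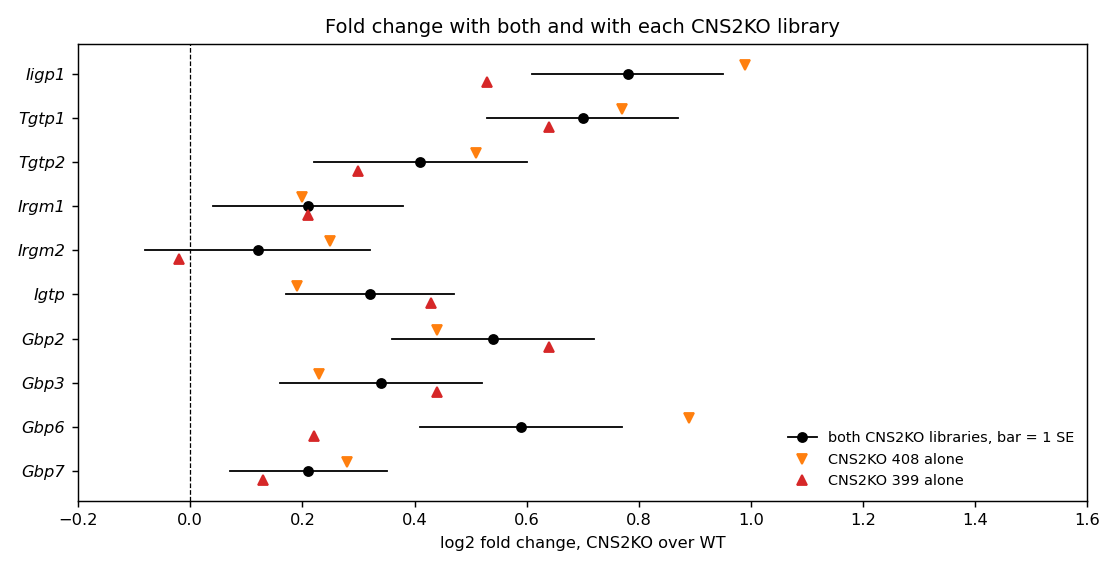
Log2 fold change of CNS2KO over WT for each of the 10 genes (black, bars show 1 SE) and the same with CNS2KO 408 (orange) or CNS2KO 399 (red) as the only CNS2KO library. The colored markers are far apart for Gbp6 (0.89 and 0.22) and Iigp1 (0.99 and 0.53), and 1 marker, Irgm2 with CNS2KO 399, lies below 0.

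Of the other GTPase genes of these and related families, listed with earlier results known, 18 of 19 with a row could be tested, and edgeR's quasi-likelihood test called 0 of 18 at an FDR of 0.05 (0% of all genes). The list had 14 positive and 4 negative fold changes (median log2 0.18), against 47.4% positive over all genes. At an unadjusted p under 0.05 there were 4 genes of the list, against 2.5% of all genes. DESeq2 and limma-voom called 0. The 4 were Gbp8 (log2 fold change 0.62, SE 0.19), Ifi47 (0.48, SE 0.16), Gm12250 (0.46, SE 0.19) and Gbp10 (0.85, SE 0.38). Without CNS2KO 408 the median of the list was -0.07, and without CNS2KO 399 it was 0.29.

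Gbp8 had 268 and 237 CPM in CNS2KO 399 and 408, against 129 to 196 CPM in WT libraries. Ifi47, an Irg protein also named Irgd, had 1374 and 1069 CPM in CNS2KO 399 and 408, against 770.1 to 1022 CPM in WT libraries. Gm12250, also named Irgb10, had 258.5 and 299 CPM in CNS2KO libraries and 157 to 245 CPM in WT libraries. In these 3 genes both CNS2KO libraries lay above every WT library, which held for 3.76% of all genes. Gbp10, the neighbour of Gbp6, had 147 CPM in CNS2KO 408 but 34.9 CPM in CNS2KO 399, below every WT library (46.9 to 55.1 CPM).

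In the other tested genes of the list the groups overlapped. Gbp4, at 488 and 585 CPM in CNS2KO libraries and 384 to 584 in WT libraries, had a log2 fold change of 0.17, Gbp9 0.32, Gbp5 0.30, Gbp1 0.09, Gbp11 0.04 and the giant GTPase gene Gvin1 0.01. The antiviral Mx1, at 17.1 and 39.7 CPM in CNS2KO 399 and 408 and 9.93 to 22.4 CPM in WT libraries, stood at 0.72 (SE 0.38) and Mx2 at 0.19, and Irgq at 0.15, F830016B08Rik at 0.24, Gm4951 at -0.10 and Gm5431 at -0.23. Irgc1 stood at 0.191 CPM in CNS2KO 408 and 0.273 CPM in WT 398, was at 0 in the other 5 libraries, and was not tested. Between Tgtp1 and Tgtp2 in gene order lies 9930111J21Rik2, and just before Tgtp1 lies 9930111J21Rik1, and these Irg genes stood at -0.14 (SE 0.20) and -0.06 (SE 0.26). The windows of 9930111J21Rik2, Ifi47, Irgq and Gm5431 held neither core, that of 9930111J21Rik1 held an ISRE core, and those of Gbp5 and Gm12250 held both cores.

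Genes of the receptors and signalling upstream of the GTPases did not pass. edgeR's quasi-likelihood test called 0 of 16 at an FDR of 0.05, with 0 at an unadjusted p under 0.05 (2.5% of all genes) and 0 by DESeq2 and limma-voom. The median log2 fold change was 0.08, and -0.16 without CNS2KO 408. Irf1, an interferon-induced regulatory factor, had 535 and 374 CPM in CNS2KO 399 and 408 and 356 to 468 CPM in WT libraries (0.21, SE 0.18). Transcripts of Ifng itself were rare, at 1.89 and 2.30 CPM in CNS2KO libraries and 0.994 to 4.01 CPM in WT libraries.

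The interferon gamma receptor chain Ifngr1 had 651.5 CPM in CNS2KO 399, above every WT library, and 408 CPM in CNS2KO 408, inside the WT range of 319 to 486 CPM. Its partner Ifngr2 had a log2 fold change of 0.10 (SE 0.32). The type I receptor chains Ifnar1 and Ifnar2 stood at -0.14 and -0.25. Of the kinases, Jak2 stood at 0.40 (SE 0.20), Jak1 at -0.12 and Tyk2 at -0.05. The brakes on the pathway were Socs3 at 0.39 (SE 0.25), Ptpn2 at 0.26 and Socs1 at 0.55 (SE 1.65, with no read in CNS2KO 399). Jak2 and Socs3 were the 2 of the 16 genes with both CNS2KO libraries above every WT library, which held for 3.76% of all genes. Stat2, Irf2 and Irf9 stood at 0.21, 0.00 and -0.01.

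Type I interferon response genes were set beside the 10 GTPase genes library by library. In CNS2KO 408, 26 of 33 type I genes lay above every WT library, against 12.8% of all genes, and in CNS2KO 399 4 of 33, against 20.1%. The mean difference from WT of these 33 genes was -0.10 in CNS2KO 399 and 0.81 in CNS2KO 408, while the mean of the 10 GTPase genes was 0.37 and 0.48. WT 1037 had a type I mean of 0.40 and lay above the other WT libraries in 23 of 33 type I genes, against 21.3% of all genes, and in 2 of the 10 GTPase genes. The type I median log2 fold change was 0.39 with all libraries, 0.71 without CNS2KO 399 and -0.22 without CNS2KO 408. edgeR's quasi-likelihood test called 0 of the 33 at an FDR of 0.05, and DESeq2 and limma-voom called 0. At an unadjusted p under 0.05 there were 4 of the 33 by edgeR's test, against 2.5% of all genes. The difference between the lists was not tested. The 10 genes were chosen with their fold changes in these libraries known, so their contrast with other lists is not support for a difference. The 2 type I genes with the highest CPM, Ly6e and Samhd1, stood at 0.02 and 0.00.

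Of 25 interferon gamma response genes, 21 could be tested, and edgeR's quasi-likelihood test called 0 at an FDR of 0.05, as did DESeq2 and limma-voom. At an unadjusted p under 0.05 there was 1 by edgeR's test, against 2.5% of all genes. The 21 genes had a median log2 fold change of 0.16 and a mean of 0.02, and the median was 0.06 with either CNS2KO library alone. B2m, the light chain of MHC class I, had 8658 and 8748 CPM in CNS2KO libraries and 4762 to 8985 CPM in WT libraries, and its log2 fold change was 0.26 (SE 0.20). The class I heavy chain H2-D1 stood at 0.05. The mean difference of this list was -0.17 in CNS2KO 399 and 0.28 in CNS2KO 408, against -0.19 and 0.14 over all genes in these libraries. In CNS2KO 399, 8 of the 21 lay above every WT library, against 20.1% of all genes, and in CNS2KO 408 6 of the 21, against 12.8%. Gm12185, which has the joined promoter pattern, was picked out for it and is on none of the lists. It had 8.65 and 32.4 CPM in CNS2KO 399 and 408, and 17.1 to 33.4 CPM in WT libraries (log2 fold change -0.03, SE 0.46). Its lowest library was CNS2KO 399 and its highest WT 1037.

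**Figure D5:**
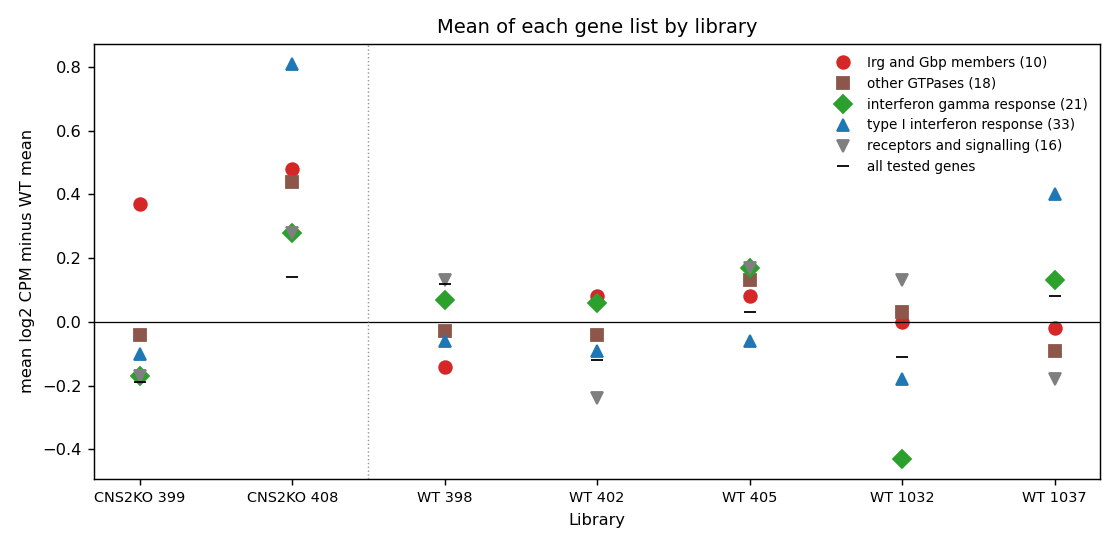
Mean over each gene list of log2 CPM minus the WT mean, by library, with the CNS2KO libraries on the left. In CNS2KO 399 the 10 GTPase genes (red) stand at 0.37, the 4 other lists at -0.17 to -0.04 and all tested genes (black bars) at -0.19. In CNS2KO 408 all tested genes stand at 0.14, the 5 lists lie above that, and the type I genes are highest, at 0.81. The 10 genes were chosen with their fold changes known, so their place among the lists is a description only.

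Over the 7 libraries, log2 CPM of single members and the mean of the other 9 had a Pearson's r of 0.31 (Irgm2) to 0.90 (Gbp7). Of 8848 other genes with an average log2 CPM above 3, those most like the mean of the 10 were Thoc1 (r = 0.955), Mrps14 (0.947), Cept1 (0.946), Hmgb1 (0.926), Sat1 (0.922), Yipf4 (0.921), Exoc6 (0.920) and Mettl10 (0.902). These are likeness values over 7 libraries in which the CNS2KO pair weighs most, and they carry no test. The 10 genes were chosen with their CNS2KO fold changes known, so likeness among them is not support for shared control. Thoc1, a subunit of an RNA export complex, had 239 and 276 CPM in CNS2KO libraries and 154.5 to 194 CPM in WT libraries. Mrps14, a mitochondrial ribosomal protein gene, had 176 and 173 CPM in CNS2KO libraries and 104 to 133 CPM in WT libraries. None of the 8 was on an interferon list.

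In the authors' deposited table, which gives 1 signed value per gene and names neither groups nor direction, 8 of the 10 genes had positive and 2 negative values (median 0.14), against 51.2% positive over all genes tested (median 0.01). In the authors' deposited table Gbp3 had 0.64, Irgm2 0.42, Gbp7 0.35 and Iigp1 0.27, and Tgtp2 -0.09 and Tgtp1 -0.31. The order of the genes there differed from that of the fold changes above, where Tgtp1 was the second highest and Irgm2 the lowest. In the authors' deposited log2 values the CNS2KO minus WT differences of means were 0.77 for Iigp1, 0.71 for Tgtp1, 0.56 for Gbp2 and Gbp6, and 0.13 for Irgm2.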

How the data were processed

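RNA was amplified with a SMARTer kit and sequenced as Ion Proton libraries, per the labels' protocols. STAR, BWA and edgeR are listed without versions in the submitters' processing notes, as is the build mm9. Which annotation and counting program made the table, and whether strand was used, is not given in the sources used here. Raw counts by gene symbol were deposited, with 5 summary rows that entered neither library sizes nor tests. The authors also deposited log2 values per column, whose scaling was not given, and a table of 1 signed score per gene. Of each column's reads, 22 to 23.7% fell on genes and 47.7 to 54.3% on no feature. Over the 2 tables with columns per sample, 4 value columns were not used, the 2 per table numbered 407.

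The main test was that of edgeR 4.0.16 in R 4.3.3 (filterByExpr, TMM scaling, two-sided quasi-likelihood test, Benjamini-Hochberg adjustment over all 14424 genes, FDR 0.05). Each SE was derived from the fold change and its F statistic. CPM is TMM-scaled, and 3 counts, the floor for counting error, make 0.142 to 0.182 CPM; the reads carry no molecular identifiers. Log2 CPM uses a prior count of 2. Alternatives were other scalings, DESeq2 1.42.0, limma 3.58.1 on voom and on the authors' log2 values, other filters, subsets of WT libraries, a term for 4-digit numbers, summed near-copies, an FDR of 0.1 and each library left out. Named genes were the 10 members, Foxp3, the other GTPase and signalling lists (1 signalling gene is not reported here), the 2 most read genes of other lists, and the 8 genes most like the members. Members and lists were chosen with earlier results of these data known. Proteins were not used here.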

Additional observations from a re-analysis of the deposited data

Results flagged for a closer look

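In 91 genes the 5 WT values were checked for 1 library far from the others, and 7 had one, where chance gives about 1 in 20. None of the 10 GTPase genes was among them. WT 1037 was high for Gm12185 at 33.4 CPM (next 19.5), for the B cell genes Ighm at 1308.6 CPM (next 1055.9) and Pax5 at 8.48 CPM (next 0.327). WT 398 was high for Irgc1 at 0.273 CPM, Cd14 at 0.382 CPM and Klrb1c at 1.09 CPM, each from few reads, and low for Ms4a1 at 6.16 CPM (next 9.94).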

How the results depend on the processing

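The median log2 fold change of the 10 genes was 0.31 to 0.42 over 16 alternatives, against 0.37. The count of members with both CNS2KO libraries above every WT library, 6, was 6 to 7 with 1 library left out. That count was added after seeing the data and is no check, since with CPM kept as it was, leaving out a library cannot lower it. Of 163 single-gene values under alternatives, 160 were positive, and the 3 negative ones were those of Irgm2 given above and -0.01 with a term for 4-digit numbers. All of these values reuse the comparison that led to the choice of the 10 genes, so their steadiness is not support for it. Foxp3 stayed at -0.19 to -0.02 and on the same side of the threshold. Of 17 alternatives, 16 called 0 genes, and leaving out the low-count filter gave 8. With 1 library left out, medians ranged from -0.07 to 0.29 for other GTPases, -0.16 to 0.18 for receptors and signalling, 0.06 to 0.18 for interferon gamma response genes, -0.22 to 0.71 for type I genes, -0.29 to 0.43 for B cell markers, -0.66 to -0.04 for CD8 and NK markers and 0.68 to 2.90 for erythroid markers. The B cell median, 0.05 with all libraries, was -0.29 without CNS2KO 399 and 0.43 without CNS2KO 408. The CD8 and NK median, -0.26 with all libraries, was 0.04 with WT numbers of 3 digits only and with the term for 4-digit numbers, and the cause was not tested. Where a CNS2KO library was left out, the other was assumed to vary like the WT libraries. No paired analysis was possible because the genotypes share only the number 407, whose columns were not used.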

Other observations

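Genes of the Atg8 conjugation machinery, which in mouse cells directs Irg and Gbp proteins to vacuoles were listed as a further group. Of 10 such genes 9 could be tested, and edgeR's quasi-likelihood test called 0 at an FDR of 0.05, as did DESeq2 and limma-voom. At an unadjusted p under 0.05 there were 0 by edgeR's test, against 2.5% of all genes. The median log2 fold change was 0.12. Map1lc3b had 396 and 310.2 CPM in CNS2KO 399 and 408 and 306.5 to 439 CPM in WT libraries, and Gabarap stood at a log2 fold change of 0.09 (SE 0.17). The summed level of the list was 1059.6 and 960.1 CPM in CNS2KO 399 and 408 and 870.5 to 1097 CPM in WT libraries.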
